A study of Mus musculus with 4 samples.

Results

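The 10 genes described here encode proteins that epithelia make against microbes and during injury. They were taken by symbol from the deposited tables: Lcn2, Slpi, Wfdc2, Pigr, Reg2, Reg3b, Reg3g, Defb1, Ltf and Plac8. Each had exactly 1 transcript line, so the 10 stand among 22869 gene symbols in all. Of them 7 had enough counts to be tested, and 3, the Reg genes, did not.

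Epithelia protect their surface with secreted proteins that starve, bind or kill microbes and that restrain the proteases released by inflammatory cells. Lipocalin 2 and lactoferrin keep iron from bacteria, WAP-domain proteins such as SLPI inhibit serine proteases, beta-defensins and Reg3 lectins attack bacterial membranes, and the polymeric immunoglobulin receptor carries IgA across the cell. In the pancreas the Reg proteins are secretory products of acinar cells and are known for their strong induction in pancreatitis.

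RNA was sequenced from primary pancreatic ductal cells of 4 adult C57BL/6 mice, with 2 animals per group. The libraries labelled Hhex KO came from Sox9CreER;HhexL/L animals, which carry floxed alleles of Hhex, a homeobox transcription factor, and a Cre recombinase that is switched on by tamoxifen and driven by the ductal gene Sox9. The control libraries came from HhexL/L littermates with the same floxed alleles and no Cre. The animals had not been induced, and the cells of both groups received 500 nM 4-hydroxytamoxifen in culture for 4 days. No group had the Cre without the floxed alleles, so that effects of the Cre and of the loss of Hhex cannot be told apart.

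The RefSeq promoter table (build GRCm38.p6) matched 9 of the 10 genes, all but Defb1. The 250 bases before the start site are shown for Wfdc2, the most abundant of the genes, for Lcn2 and Slpi, which were both highest in the same library, and for Plac8, whose libraries differed most. Capitals mark matches, on either strand, to the letters searched. These were TTGCNNAA for C/EBP factors, TTCNNNGAA for STAT factors and ATTAA for the core of sites bound by HHEX.
Wfdc2, chr2:164562465-164562714, plus strand: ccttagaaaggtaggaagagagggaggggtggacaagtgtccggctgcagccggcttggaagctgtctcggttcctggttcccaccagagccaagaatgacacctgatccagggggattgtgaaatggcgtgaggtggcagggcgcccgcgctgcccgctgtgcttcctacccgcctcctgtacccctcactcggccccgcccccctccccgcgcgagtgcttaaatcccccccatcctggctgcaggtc
Lcn2, chr2:32387740-32387989, minus strand: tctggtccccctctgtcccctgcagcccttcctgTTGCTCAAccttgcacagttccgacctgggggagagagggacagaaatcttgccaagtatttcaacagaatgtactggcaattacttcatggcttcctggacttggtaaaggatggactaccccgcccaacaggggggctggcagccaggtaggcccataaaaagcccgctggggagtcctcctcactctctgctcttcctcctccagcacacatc
Slpi, chr2:164356508-164356757, minus strand: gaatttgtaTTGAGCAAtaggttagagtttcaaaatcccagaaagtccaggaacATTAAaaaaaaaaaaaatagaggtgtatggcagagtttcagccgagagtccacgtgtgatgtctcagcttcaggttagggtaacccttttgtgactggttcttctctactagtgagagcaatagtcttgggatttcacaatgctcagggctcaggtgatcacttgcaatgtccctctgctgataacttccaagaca
Plac8, chr5:100572206-100572455, minus strand: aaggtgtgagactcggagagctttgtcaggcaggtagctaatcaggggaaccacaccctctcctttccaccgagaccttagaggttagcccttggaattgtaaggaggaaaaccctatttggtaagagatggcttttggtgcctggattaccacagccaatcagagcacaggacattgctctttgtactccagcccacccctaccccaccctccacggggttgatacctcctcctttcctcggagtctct
The Lcn2 window held 1 match to the C/EBP letters, TTGCTCAA, at 216 to 209 bases before the start. The Slpi window held 1 match to the C/EBP letters, 241 to 234 bases before the start, and 1 to the HHEX core, 196 to 192 bases before it. The Wfdc2 window, and the window shown for Plac8, which is the farther upstream of 2 annotated starts, held none of the 3. The window of the other Plac8 start, not shown, held 1 match to the C/EBP letters, 12 to 5 bases before that start. Of the other windows not shown, that of Ltf held 1 match to the C/EBP letters, 75 to 68 bases before the start. It also held 1 match to the HHEX core, 218 to 214 bases before the start. Ltf was lowest in the library where Lcn2 and Slpi were highest. The Reg2 window held 1 match to the C/EBP letters and the Reg3b window 1 to the STAT letters, while those of Pigr and Reg3g held none. No 2 of these matches overlapped. Of 32817 promoter windows of the same length, 9.57% held the C/EBP letters, 24.9% the HHEX core and 7.01% the STAT letters. The matches are descriptions of the letters in these windows, and whether they bear on the level of any gene was not tested.

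Library totals ran between 25257778 and 39582625 counts. Levels within a gene are given as CPM, which are counts scaled to library size with TMM factors, and levels between genes as the authors' deposited RPKM, which are scaled by transcript length. The targeted gene was not lower where the labels give a knockout: Hhex stood at 23.6 and 38.9 CPM in the libraries labelled Hhex KO, against 24.8 and 17.7 CPM in the controls (log2 fold change 0.55 ± 0.27 SE, edgeR adjusted p = 0.741). Without Hhex KO replicate 1, where 1 library stands for the group, it was 0.84 (edgeR adjusted p = 1.99e-05), and without Hhex KO replicate 2 it was 0.13 (edgeR adjusted p = 0.829). The labels do not say which part was floxed, so this count may include reads outside it, and the group is called by its label throughout. By Xist, at 304 CPM there and at most 1.75 CPM in the other 3 libraries, the library labelled Hhex KO replicate 2 came from the only female. Values particular to that library and an effect of sex cannot be told apart. All 13 ductal markers listed were tested and none was called. Of them 5 had an unadjusted p under 0.05, as did 7.47% of all transcripts tested. Among these 5 markers, Sox9 and Tspan8 had log2 fold changes of 1.30 and 0.69, and Cftr, Ambp and Muc1 of -0.93, -1.88 and -2.21. Sox9 lay just over the adjusted threshold of 0.05 (edgeR adjusted p = 0.0521). The duct keratin gene Krt19 was abundant throughout, at 552 and 1013 CPM in the libraries labelled Hhex KO and 625 and 752 CPM in the controls.

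The 10 genes spanned the whole range of expression in these ductal cells. Wfdc2 averaged 732 RPKM over the 4 libraries and ranked 19th of 22869 symbols. Lcn2 averaged 162 RPKM (rank 161), Plac8 88.5 RPKM (rank 378), Slpi 51.4 RPKM (rank 791) and Ltf 18.7 RPKM (rank 2593). The other 5 lay under 1 RPKM, with Defb1 at 0.35, Pigr at 0.152, Reg3b at 0.101, Reg3g at 0.0692 and Reg2 at 0.0112 RPKM. Wfdc2 was above Lcn2 in every library, by 2.69-fold and 6.78-fold in those labelled Hhex KO and by 4.64-fold and 5.84-fold in the controls (ratios of RPKM). The RPKM range of Plac8 over the libraries overlapped those of Lcn2, Slpi and Ltf, and in Hhex KO replicate 1 Plac8, at 9.57 RPKM, lay under Ltf at 14.8 RPKM. Summed, the 10 genes took 0.0948% and 0.117% of all counts in the libraries labelled Hhex KO, against 0.117% and 0.105% in the controls, and Wfdc2 alone made 59.4% to 66.1% of that sum.

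**Figure D1:**
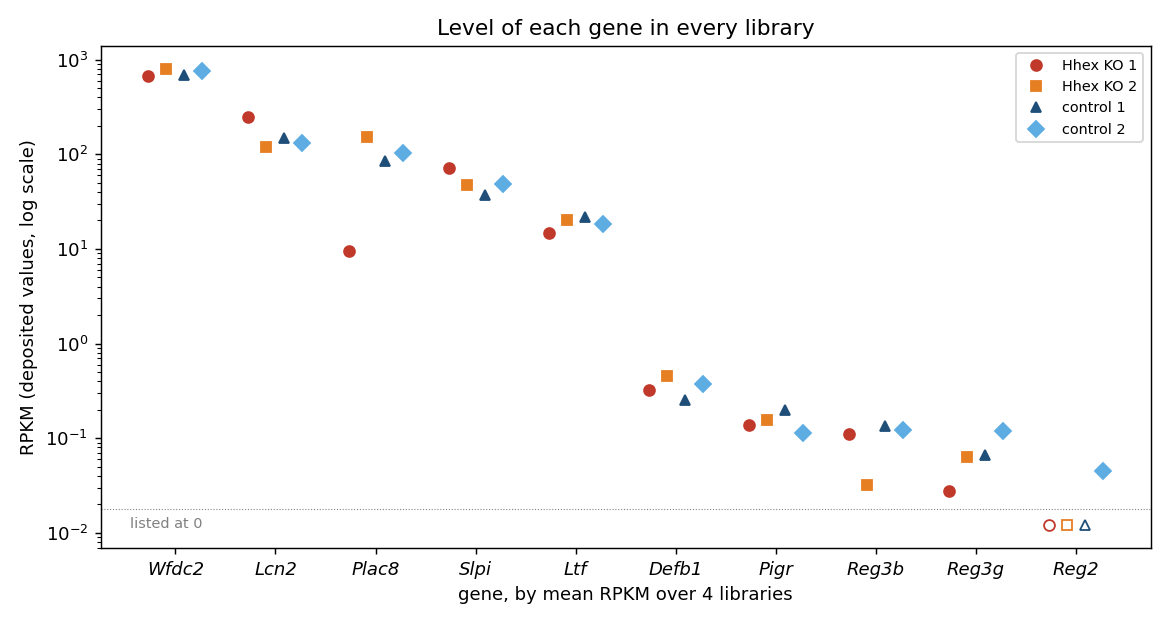
Deposited RPKM (log scale) of the 10 genes in the 2 libraries labelled Hhex KO and the 2 controls, 1 point per library, genes ordered by their mean. Of the 10 genes, 5 lie above 9 RPKM in every library and 5 below 1 RPKM, and Plac8 is the gene whose libraries lie farthest apart.

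None of the 7 genes tested passed an adjusted p of 0.05 in edgeR's quasi-likelihood test, labelled Hhex KO minus control, with Benjamini-Hochberg adjustment over 20949 transcripts. None of the 7 had an unadjusted p under 0.05 either. Of all transcripts tested, 0.177% passed the adjusted threshold and 7.47% had an unadjusted p under 0.05. Log2 fold changes were positive for 3 genes (Slpi, Lcn2, Defb1) and negative for 4 (Wfdc2, Pigr, Plac8, Ltf), with a median of -0.053 against -0.0089 over all transcripts tested. In all 7 the CPM of the 2 groups overlapped, while 36.1% of all transcripts tested had groups that did not overlap. The lowest adjusted p, for Slpi, was 0.756. A miss does not show that the groups were alike, and the intervals below give the sizes of difference left possible. In these cultures a smaller share of cells making a transcript and less of it per cell cannot be told apart.

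The WAP-domain genes Wfdc2 and Slpi were both well expressed in every library. WFDC2, also called HE4, is a small secreted protein of airway, genital and ductal epithelia. Its transcript stood at 596 and 754 CPM in the libraries labelled Hhex KO, against 692 and 708 CPM in the controls. The controls lay between the others, and the highest library was 1.26 times the lowest, the narrowest range of the 7 genes tested. The log2 fold change was -0.053 ± 0.19 (SE), its 95% interval -0.50 to 0.40 (edgeR adjusted p = 0.982), which leaves out a change of 2-fold in either direction.

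Slpi encodes the secretory leukocyte protease inhibitor, which blocks neutrophil elastase. It stood at 79.4 and 55.5 CPM in the libraries labelled Hhex KO, against 46.3 and 55.5 CPM in the controls. Only the library labelled Hhex KO replicate 1 stood apart, with replicate 2 level with control replicate 2. The fold change was 1.33, 95% interval 0.951 to 1.85 (edgeR adjusted p = 0.756). Without the library labelled Hhex KO replicate 2 the log2 fold change was 0.63 (edgeR adjusted p = 0.0013), with 1 library standing for the group and assumed to vary as the controls did. Without Hhex KO replicate 1 it was 0.10 (edgeR adjusted p = 0.9999).

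Lcn2 and Ltf, the iron-withholding genes, lay on opposite sides of the controls in the library labelled Hhex KO replicate 1. Lipocalin 2 binds the siderophores with which bacteria take up iron and is a marker of epithelial injury. Lcn2 stood at 268 and 134 CPM in the libraries labelled Hhex KO, against 180 and 146 CPM in the controls. These libraries gave both the highest and the lowest value of the 4, a 2.00-fold difference within the group, and 2440 of the 20949 transcripts tested differed more between these 2 libraries. Its log2 fold change of 0.30 ± 0.31 (SE) had a 95% interval from -0.43 to 1.03 (edgeR adjusted p = 0.932). The sign rested on 1 library. The log2 fold change was -0.31 without Hhex KO replicate 1 (edgeR adjusted p = 0.379) and 0.70 without Hhex KO replicate 2 (edgeR adjusted p = 0.00091).

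Lactoferrin is an iron-binding protein of milk, tears and other secretions, and of neutrophil granules. Ltf stood at 51.0 and 73.1 CPM in the libraries labelled Hhex KO, against 84.96 and 65.1 CPM in the controls. Replicate 1 was the lowest of the 4, and replicate 2 lay between the controls. The fold change was 0.827, 95% interval 0.579 to 1.18 (edgeR adjusted p = 0.913). The difference rested on single libraries of both groups. The log2 fold change was -0.067 without Hhex KO replicate 1 and -0.072 without control replicate 1. It was -0.58 without Hhex KO replicate 2 and -0.42 without control replicate 2.

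Plac8 differed far more between the libraries labelled Hhex KO than between the groups. PLAC8 is a small cysteine-rich protein, mainly intracellular, described in myeloid cells and in pancreatic tumour cells. Its transcript stood at 8.40 and 143 CPM in the libraries labelled Hhex KO, against 84.3 and 94.98 CPM in the controls. Replicate 1 was at 0.0937 of the control mean and replicate 2 at 1.59 times it, so that the pair enclosed both controls and differed 17.0-fold. The counts behind these values were 314 and 4422, against 2317 and 2345 in the controls, so that counting error was small beside the difference. Only 25 of the 20949 transcripts tested (0.119%) differed more between the libraries labelled Hhex KO, where the median absolute log2 difference was 0.28. The controls differed by 0.17 on that scale, less than 58.8% of transcripts did.

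The log2 fold change of Plac8 between the groups was -0.25 ± 0.96 (SE), its 95% interval -2.51 to 2.01 (edgeR adjusted p = 0.983). In limma-trend on log2(RPKM + 1), which averages log values, it was -1.24 (adjusted p = 0.825). The edgeR value turned with the library left out. Without Hhex KO replicate 1 it was 0.64 (edgeR adjusted p = 0.0016), and without Hhex KO replicate 2 it was -3.43 (edgeR adjusted p = 1.44e-66). Each of these fits has 1 library for the group, whose spread is taken from the controls, and their opposite calls describe single libraries.

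**Figure D2:**
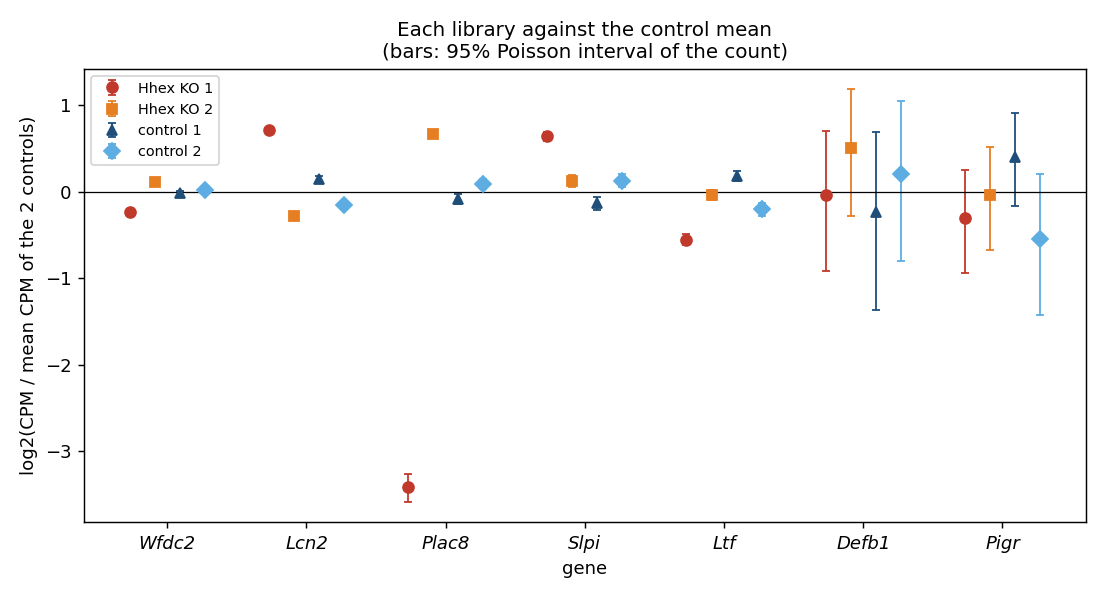
Log2 ratio of each library's CPM to the mean of the 2 controls for the 7 genes tested, with bars for the 95% Poisson interval of the count. For Plac8 the library labelled Hhex KO replicate 1 lies far below all others (8.40 CPM against 84.3 to 143 CPM), and for Lcn2 and Slpi the same library is the highest.

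**Figure D3:**
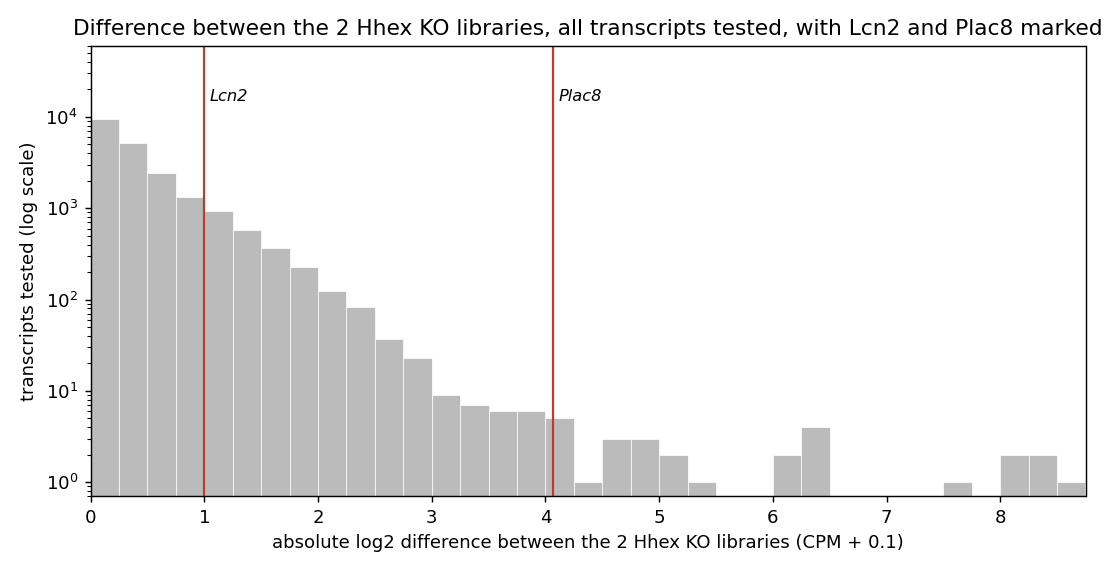
Absolute log2 difference between the 2 libraries labelled Hhex KO (CPM + 0.1) for 20949 transcripts tested, as counts per bin on a log scale, with Lcn2 and Plac8 marked. Lcn2 lies at 1.00 and Plac8 at 4.07, where 25 transcripts differ more.

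Pigr and Defb1 were close to the lower end of what these libraries measure. Pigr, the receptor that carries polymeric IgA to the lumen, had 25 and 25 counts in the libraries labelled Hhex KO, against 30 and 14 in the controls. That came to 0.669 and 0.806 CPM in the libraries labelled Hhex KO and 1.09 and 0.567 CPM in the controls. The controls enclosed the other libraries, and the 95% counting intervals of all 4 overlapped. Defb1, a constitutive epithelial beta-defensin, had 14 and 17 counts in the libraries labelled Hhex KO, against 9 and 11 in the controls. In CPM the groups overlapped, at 0.375 and 0.548 in the libraries labelled Hhex KO and 0.328 and 0.446 in the controls. The fold changes were 0.886 for Pigr (95% interval 0.316 to 2.48, edgeR adjusted p = 0.982) and 1.19 for Defb1 (0.334 to 4.24, edgeR adjusted p = 0.98). At this depth changes of 2-fold in either gene could not be told from none.

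The Reg genes were at or near the floor in both groups. Reg3b and Reg3g encode secreted C-type lectins that bind bacteria, and Reg3b is also known as pancreatitis-associated protein. Reg3b had 4 and 1 counts in the libraries labelled Hhex KO, against 4 and 3 in the controls. Reg3g had 1 and 2 counts in the libraries labelled Hhex KO, against 2 and 3 in the controls. Reg2, an acinar secretory protein, had 0 and 0 counts in the libraries labelled Hhex KO, against 0 and 1 in the controls. The 95% counting intervals of Reg2 reached up to 0.0987 and 0.119 CPM in the libraries labelled Hhex KO. In the controls they reached up to 0.134 and 0.226 CPM. At such counts no fold change is given. The other Reg genes, Reg1, Reg3a, Reg3d and Reg4, had at most 7 counts in any library.

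**Figure D4:**
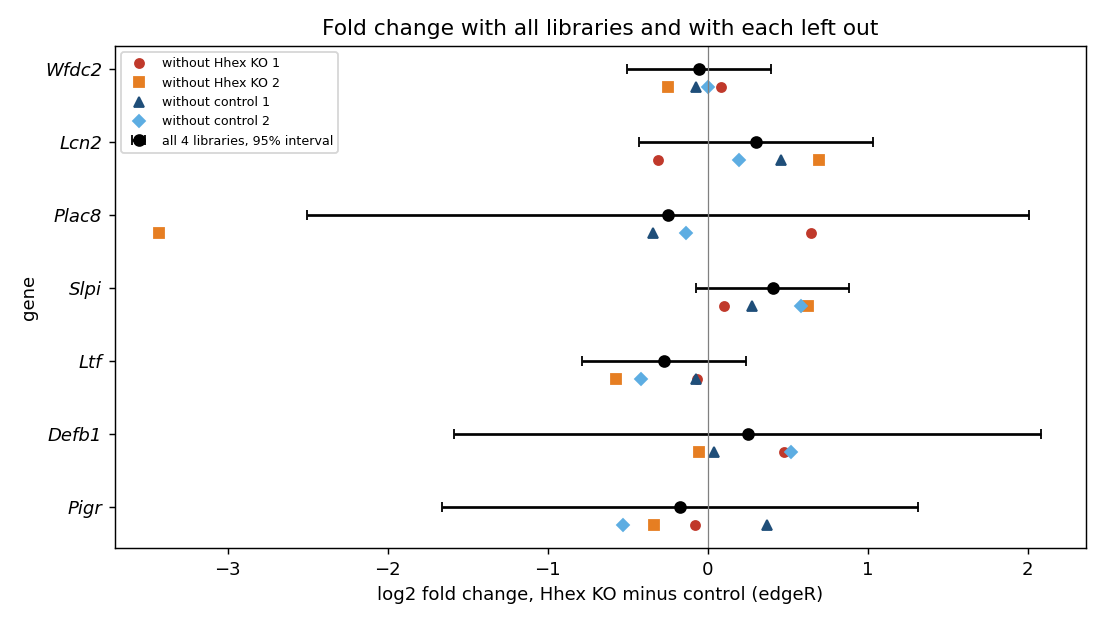
Log2 fold change (labelled Hhex KO minus control, edgeR) of the 7 genes tested, with its 95% interval for all 4 libraries (black) and the values with each library left out in turn (coloured). All 7 intervals include 0, and the Plac8 value lies at 0.64 without Hhex KO replicate 1 and at -3.43 without Hhex KO replicate 2.

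Related genes were described by lists, and with all 4 libraries edgeR called none of their members in either direction over all transcripts. To set beside the counts in each list, 0.177% of all transcripts tested were called and 7.47% had an unadjusted p under 0.05. Groups did not overlap in 36.1%. Those shares hold for all 4 libraries together. With a library labelled Hhex KO left out, far more of all transcripts were called, so calls in such fits cannot be set beside these shares. Of 17 other antimicrobial and mucosal defence genes tested, 2 had an unadjusted p under 0.05, and the median log2 fold change was -0.075. Sftpd, which encodes the microbe-binding collectin surfactant protein D, stood at 449.9 and 319 CPM in the libraries labelled Hhex KO, against 618 and 649.5 CPM in the controls, with groups that did not overlap (log2 fold change -0.72 ± 0.21 SE, edgeR adjusted p = 0.417). With Hhex KO replicate 1 left out, so that 1 library stands for the group, its log2 fold change was -1.02. EdgeR called Sftpd in that fit and not with Hhex KO replicate 2 left out. S100a9, a subunit of the antimicrobial calprotectin, stood at 0.214 and 0.0645 CPM in the libraries labelled Hhex KO and 0.728 and 1.22 CPM in the controls (edgeR adjusted p = 0.469). Its counts were low, at 8 and 2 in the libraries labelled Hhex KO and 20 and 30 in the controls. Limma-trend on log2(RPKM + 1) called S100a9 lower (adjusted p = 0.0043). Neither DESeq2 nor limma-trend without a filter called it.

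Among 5 other WAP-domain genes tested, 1 had an unadjusted p under 0.05. Wfdc3 stood at 5.14 and 1.97 CPM in the libraries labelled Hhex KO, against 0.692 and 0.932 CPM in the controls, and the groups did not overlap. EdgeR gave Wfdc3 a log2 fold change of 2.13 ± 0.54 (SE), not past the threshold (adjusted p = 0.32), while DESeq2 called it (log2 fold change 2.16, adjusted p = 0.0197). With Hhex KO replicate 2 left out, so that 1 library stands for the group, edgeR gave 2.64. EdgeR called Wfdc3 in that fit and not with Hhex KO replicate 1 left out. Wfikkn1, which encodes a protease inhibitor that binds myostatin, stood at 0.803 and 1.35 CPM in the libraries labelled Hhex KO, against 2.55 and 1.66 CPM in the controls (edgeR adjusted p = 0.756). Of 40 other beta-defensin genes in the tables, 31 had at most 3 counts in every library and 1 was tested. That gene, Defb14, stood at 0.616 and 0.902 CPM in the libraries labelled Hhex KO and at 0.437 and 2.19 CPM in the controls (edgeR adjusted p = 0.929).

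Cytokine receptors and transcription factors that act upstream of these genes were present, with 25 of 27 tested. Of these, 4 had an unadjusted p under 0.05, 12 fold changes were positive and 13 negative, and the median log2 fold change was -0.049. Irf1, an interferon-induced transcription factor, stood at 31.5 and 26.4 CPM in the libraries labelled Hhex KO, against 41.4 and 60.6 CPM in the controls (log2 fold change -0.81 ± 0.21 SE, edgeR adjusted p = 0.325). Il10rb, the receptor chain shared by interleukins 10 and 22, stood at 60.6 and 60.7 CPM in the libraries labelled Hhex KO, against 35.8 and 45.0 CPM in the controls (log2 fold change 0.59 ± 0.16 SE, edgeR adjusted p = 0.362). Neither gene's groups overlapped, as for 9 of the 25 genes in this list, a share near the 36.1% of all transcripts tested. With either library labelled Hhex KO left out, so that 1 stands for the group, edgeR called both. Irf1 was then at a log2 fold change of -0.97 and -0.71, and Il10rb at 0.56 and 0.57.

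Of 11 receptors, ligands and partners of the 10 proteins tested, 2 had an unadjusted p under 0.05. Anxa2, a phospholipid-binding annexin, stood at 1255 and 1349 CPM in the libraries labelled Hhex KO, against 635 and 829 CPM in the controls. EdgeR gave Anxa2 a log2 fold change of 0.83 ± 0.21 (SE), not past the threshold (adjusted p = 0.299), while DESeq2 called it (adjusted p = 0.0045). EdgeR called it at a log2 fold change of 0.86 without Hhex KO replicate 1 and of 0.76 without Hhex KO replicate 2. Grn, which encodes progranulin, a growth factor that SLPI shields from elastase, stood at 35.7 and 33.5 CPM in the libraries labelled Hhex KO, against 44.1 and 43.5 CPM in the controls (edgeR adjusted p = 0.622).

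Among 12 acute-phase and tissue injury genes tested, 6 fold changes were positive and 6 negative, and 2 genes had an unadjusted p under 0.05. Il1rn, the interleukin 1 receptor antagonist gene, stood at 4.50 and 5.67 CPM in the libraries labelled Hhex KO, against 7.64 and 10.1 CPM in the controls (log2 fold change -0.80 ± 0.25 SE, edgeR adjusted p = 0.454). With Hhex KO replicate 2 left out, so that 1 library stands for the group, its log2 fold change was -0.99. EdgeR called Il1rn in that fit and not with Hhex KO replicate 1 left out. Clu, which encodes the extracellular chaperone clusterin, stood at 1925 and 1230 CPM in the libraries labelled Hhex KO, against 3039 and 2378 CPM in the controls (log2 fold change -0.78 ± 0.27 SE, edgeR adjusted p = 0.522). With Hhex KO replicate 1 left out, so that 1 library stands for the group, its log2 fold change was -1.17. EdgeR called Clu in that fit and not with Hhex KO replicate 2 left out.

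**Figure D5:**
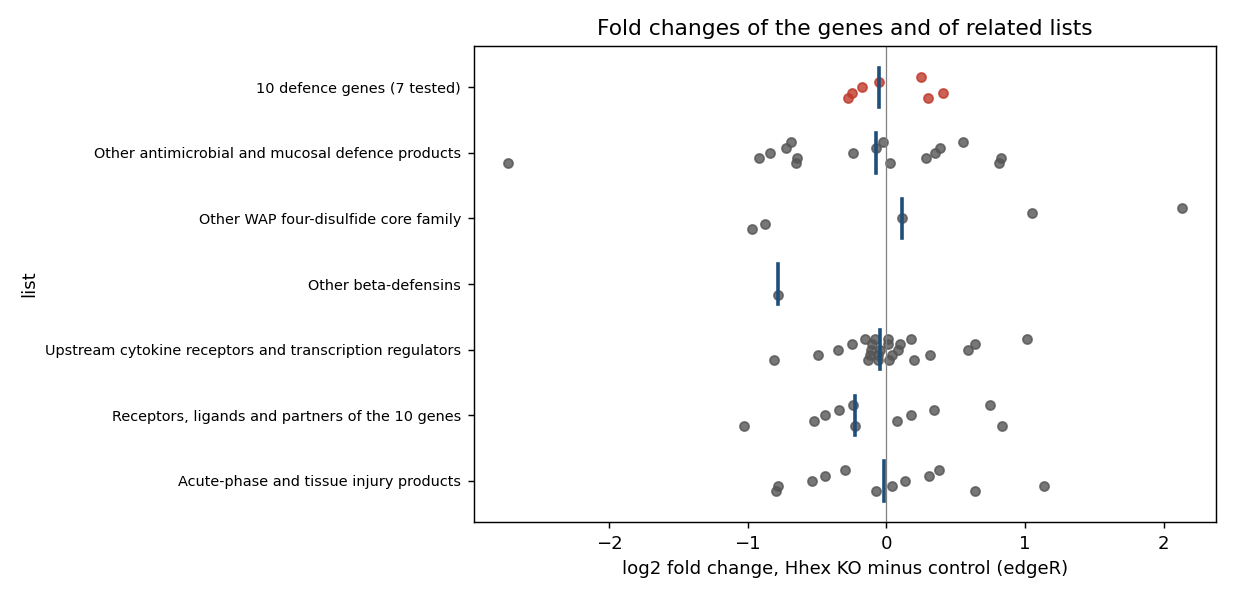
Log2 fold changes (labelled Hhex KO minus control, edgeR) of the genes tested in each list, 1 point per gene, with a bar at the list's median. The 7 genes of the set (red) lie between -0.27 for Ltf and 0.41 for Slpi, and no point in any list passed the adjusted threshold.

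Markers of other cells that a ductal culture could hold differed widely in level. Of 15 neutrophil markers 14 were in the tables, none above 30 counts, and their CPM summed to 2.01 and 3.13 in the libraries labelled Hhex KO and to 5.97 and 2.75 in the controls. Elane, the elastase gene, had at most 5 counts in any library and Ngp, a granule protein gene, at most 6, while Ltf had at least 1606. Acinar markers summed to 3.85 and 6.19 CPM in the libraries labelled Hhex KO, against 7.13 and 3.24 CPM in the controls, with Amy2a5 at 0 in all 4. B and plasma cell markers summed to 0.508 and 2.39 CPM in the libraries labelled Hhex KO, against 3.17 and 0.851 CPM in the controls. Macrophage markers summed to 128 and 216 CPM in the libraries labelled Hhex KO, against 168 and 150 CPM in the controls. Most of that sum was Cd14, at 108 and 205 CPM in the libraries labelled Hhex KO and 151 and 134 CPM in the controls. Cd68 was at 16.2 and 3.93 CPM in the libraries labelled Hhex KO and 7.35 and 10.8 CPM in the controls, and the leukocyte gene Ptprc was at most 0.801 CPM. Fibroblast markers summed to 4.95 and 7.67 CPM in the libraries labelled Hhex KO, against 12.5 and 6.44 CPM in the controls. Of the mesothelial list, Msln made nearly all of the summed 3140 and 4488 CPM in the libraries labelled Hhex KO and 1585 and 2013 CPM in the controls, while Wt1 was at most 1.06 CPM. Cd14 and the ductal gene Krt19, like Plac8, were lowest in Hhex KO replicate 1 and highest in Hhex KO replicate 2. Cd68 and the ductal gene Krt18 had the opposite order, and the macrophage gene Csf1r, at most 1.42 CPM, followed neither. The ductal markers thus did not share an order. They summed to 16840 and 13600 CPM in the libraries labelled Hhex KO, against 12940 and 15430 CPM in the controls. Whether other cells had a part in the Plac8 values was not tested.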

How the data were processed

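RNA was measured in 4 libraries, 2 labelled Hhex KO and 2 control. The authors deposited raw counts and RPKM values for 28644 RefSeq transcripts. The submitters' processing notes name mm9 as the build and edgeR as a tool, without a version. The sources used here do not give the aligner, the counting program or the handling of strand. By contrast with the counts, the deposited RPKM values are, by the definition of the unit, scaled to transcript length and library.

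The test used edgeR 4.0.16 in R 4.3.3. Transcripts kept by filterByExpr (minimum count 10, minimum total 15) were scaled by TMM and entered the quasi-likelihood F test. P-values were adjusted over 20949 transcripts by Benjamini-Hochberg, with a threshold of 0.05, and 7695 transcripts were not tested. The biological coefficient of variation was 0.234, with 2 residual degrees of freedom. Counting intervals are exact Poisson intervals at 95% and cover counting error only. Alternatives were other scalings, no filter, robust fitting, DESeq2 1.42.0, limma-trend 3.58.1 on deposited RPKM, other features and each library left out. Promoters came from RefSeq GRCm38.p6, and matches were counted in 250 bases.

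The genes and lists were chosen with earlier results of these data known. From each list the text names genes past the threshold, otherwise up to 2 with the smallest p. Some genes stand in more than 1 list.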

Additional observations from a re-analysis of the deposited data

How the results depend on the processing

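None of the 7 genes tested was called under any of the 12 alternatives that kept all 4 libraries. Their adjusted p there (edgeR, DESeq2 or limma) ran from 0.652 for Slpi upward. DESeq2 gave Defb1 no adjusted p, so Defb1 could not be called in that alternative. The log2 fold changes of the 7 genes kept their sign under these alternatives, except that of Wfdc2, which was 0.0067 in each limma-trend fit on RPKM. That of Plac8 was -1.24 to -1.295 in those fits, against -0.25 in edgeR. Each library was also left out in turn. The log2 fold change then ran from -0.31 to 0.70 for Lcn2, 0.10 to 0.63 for Slpi, -0.25 to 0.080 for Wfdc2, -0.53 to 0.37 for Pigr, -0.057 to 0.52 for Defb1, -0.58 to -0.067 for Ltf, -3.43 to 0.64 for Plac8 and 0.13 to 0.84 for Hhex. Those fits have 1 library for 1 group, assumed to vary as the other group does.

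Over all transcripts edgeR called 37. The count was 26 with DESeq2 size factors in edgeR and 37 without X and Y genes. In limma-trend it was 190 on log2(RPKM + 1), 221 on log2(RPKM + 0.1) and 4 without a filter. It was 303 in DESeq2, 79 in edgeR without a filter and 84 with robust fitting. With upper-quartile factors it was 5, with library totals 5, with 1 transcript per gene 2 and with counts summed per symbol 5. With a library left out it ran from 13 without control replicate 1 to 1735 without Hhex KO replicate 2, and was 1682 without Hhex KO replicate 1. The cause was not tested. Among the related lists, DESeq2 called 1 WAP-domain gene (Wfdc3) and 1 partner gene (Anxa2). Limma-trend with a filter called 1 antimicrobial gene (S100a9) and 1 WAP-domain gene (Wfdc3) with either pseudocount. With a library left out, called genes ran from 0 to 4 among antimicrobial genes, 0 to 2 among WAP-domain genes, 0 to 5 among upstream regulators, 0 to 3 among partners and 0 to 4 among acute-phase genes. No paired analysis was possible because the labels give no replicate numbers shared between the groups. Depth limits Pigr, Defb1 and the Reg genes, which had at most 30 counts in any library.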

Other observations

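Plac8 in the library labelled Hhex KO replicate 1 lay 9.93-fold under the lowest of the other 3 libraries (CPM + 0.1), and 4 of the 20949 transcripts tested had a wider gap of that kind. Wfdc1, a WAP-domain gene chosen after its values were seen, had the same order of the libraries labelled Hhex KO around the controls. It stood at 9.5 and 73.8 CPM in the libraries labelled Hhex KO, against 18.7 and 21.6 CPM in the controls (edgeR adjusted p = 0.888). Its log2 fold change was 1.85 without Hhex KO replicate 1 and -1.10 without Hhex KO replicate 2. Osmr, the oncostatin M receptor gene, also chosen after its values were seen, stood at 28.0 CPM in Hhex KO replicate 1 and 10.3 CPM in Hhex KO replicate 2, against 10.01 and 8.95 CPM in the controls (edgeR adjusted p = 0.642). Lcn2 and Slpi were highest in Hhex KO replicate 1 as well.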
